A study of Mus musculus with 8 samples.

Results

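Foxp1, Foxp2 and Foxp4 were followed through single-cell RNA sequencing of the mouse frontal isocortex at postnatal day 7. These are the 3 forkhead box P genes with counts to compare, out of 17836 genes in the D1Tom table and 15769 in the GTE table. The rows were chosen by gene symbol. The fourth member of the family, Foxp3, had 1 count in all D1Tom cells and no row in the GTE table.

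FOXP proteins are transcription factors that bind DNA through a forkhead domain and bind each other, as homodimers or heterodimers, through a leucine zipper. They act mostly as repressors and recruit co-repressors, among them the CtBP proteins and subunits of the NuRD chromatin remodelling complex. In the developing cortex Foxp1 is known from projection neurons of several layers, Foxp2 from deep layers and above all from layer 6 corticothalamic neurons, and Foxp4 from progenitors and postmitotic neurons. Since the proteins pair, which of them occur together in a cell bears on the dimers that a cell can form.

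The study asked what loss of Foxp2 from the cortical lineage changes in these cells. Cells carrying a reporter were sorted by flow cytometry, either Drd1a-tdTomato+ cells (D1Tom) or golli-τ-eGFP+ cells (GTE). Drd1a-tdTomato is a bacterial artificial chromosome transgene that reports the dopamine D1 receptor gene, and golli-τ-eGFP uses a promoter of the myelin basic protein locus that is known for labelling corticofugal neurons of the deep layers and subplate. In each sort the control mice were Foxp2 flox/flox with the reporter, and the conditional knockouts (cKO) were Emx1-Cre; Foxp2 flox/flox with the same reporter. Both genotypes therefore carried floxed Foxp2, and they differed in Cre. Each sort had 2 control and 2 cKO libraries, 8 in all, and the labels do not say whether a library came from 1 animal. Emx1-Cre recombines in the dorsal telencephalic lineage, which gives rise to cortical excitatory neurons and to much of the cortical glia, and not in cortical interneurons, which come from the ventral telencephalon. The floxed part of Foxp2 codes for the DNA-binding domain, and the 3′ kit used here reads the end of a transcript. Foxp2 counts therefore measure RNA from the locus and do not by themselves check the deletion.

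D1Tom libraries held 2395 to 3206 cells, with total counts of 27323298 to 36379194 and medians of 7198 to 12815 counts per cell. GTE libraries held 1440 to 3948 cells, with totals of 4878370 to 6092396 and medians of 1085.5 to 2982 counts. The cell with the fewest counts had 4 and 15 in GTE control 1 and 2, and 130 and 9 in cKO 1 and 2. Median genes per cell were 358.5 and 422 in the GTE controls, against 1175.5 and 375 in the cKO, so cKO 1 stood apart. Values of 2 were 0.307 to 1.69 times as frequent as values of 1 in the D1Tom libraries, so the counts do not behave like plain numbers of molecules, and no Poisson intervals were used. Libraries of the same sort shared 4 to 27 cell barcodes per pair. All 6 excitatory neuron markers had counts in every library. All 7 astrocyte markers did too, and their summed level was 2556 to 3535 counts per 1000000 (CPM) in D1Tom and 1866 to 5822 CPM in GTE. The 8 striatal projection neuron markers summed to 72.4 to 103 CPM in D1Tom, and no cell of either sort met the rule for a striatal cell. Replicates are samples that the labels call separate, so p-values measure the spread between these libraries.

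Cells were grouped by their counts of fixed marker genes, which included no Foxp gene. A marker was scored in a cell that had a count of it, at a CPM no lower than its mean over all cells of the sort. A cell joined a group when at least 3 of the group's markers, and at least 40% of them, were scored in it. A lead of at least 10 percentage points over every other group was also required. In D1Tom 7517 cells joined a named type, 773 and 300 more met only the general markers of excitatory and inhibitory neurons, and 2904 stayed ungrouped. Of the 7517, 1259 had a lead under 20 points. The groups are called here by their marker lists, for example layer 6 corticothalamic cells (Rprm, Syt6, Tle4, Hs3st4, Thsd7b, Sla) and neuroblast cells (Sp8, Sp9, Dlx1, Dlx2, Dlx5, Meis2, Igfbpl1, Tshz1, Pbx3, Dcx). In GTE 8637 of 11382 cells stayed ungrouped, 39 met the rule for layer 6 corticothalamic cells and 1781 that for astrocytes. The ungrouped share of a GTE library ran from 18.1% in cKO 1 to 90.6% in control 1, and the astrocyte share from 6.66% in control 1 to 45.2% in cKO 1. The cell groups below are those of D1Tom unless GTE is named.

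Foxp1 lies on chromosome 6 at 98925338 to 99522721 on the minus strand of GRCm38 (ENSMUSG00000030067.17, GENCODE M21). It was highest in excitatory neurons. In layer 5 pyramidal tract cells its level was 617.5 and 616.9 CPM in control 1 and 2, and 569.7 and 554.9 CPM in cKO 1 and 2. This was the highest mean of all groups, 590 ± 32.3 CPM (SD, n = 4 libraries), and its libraries did not overlap with those of the next group. The next 3 groups overlapped with one another: other excitatory neurons at 463 ± 78.9 CPM, upper layer cells at 449 ± 92.0 CPM and layer 6 corticothalamic cells at 406 ± 78.2 CPM. Below them, neighbours in the order overlapped throughout, from endothelial cells at 261 ± 122 CPM down to radial progenitors at 82.2 ± 31.3 CPM. A further excitatory group, layer 6b or subplate cells, held 30 cells in all and 1 in cKO 1, too few to be placed in the order. Its Foxp1 level was 53.9 and 208 CPM in the controls, from 10 cells each, and 129 and 113 CPM in the cKO, below the other excitatory groups.

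Each group was set against all other cells of the same libraries. Foxp1 was higher in all 4 excitatory groups tested, by 1.29 on the log2 scale in layer 5 pyramidal tract cells (SE 0.0963, edgeR adjusted p = 4.1e-09), 1.00 in other excitatory neurons, 0.89 in upper layer cells and 0.70 in layer 6 corticothalamic cells (adjusted p at most 5.26e-05). Many genes separate these groups from other cells: 51.4%, 52%, 48% and 37.3% of all genes tested passed in the same 4 comparisons. Foxp1 was lower in interneurons of caudal origin (-1.21), interneurons of medial origin (-1.14), other inhibitory neurons (-1.02), astrocytes (-1.22), neuroblast cells (-1.10), Cajal-Retzius cells (-1.01) and radial progenitors (-1.67), with edgeR adjusted p of at most 0.00286. The shares of all genes that passed there were 29.7%, 19.9%, 14%, 49.6%, 19%, 25.2% and 13%. In oligodendrocyte precursors (-0.81, edgeR adjusted p = 0.0198, with 30.3% of genes passing) the call was lost in the control libraries alone (adjusted p = 0.202) and without cKO 1 (0.108). In committed oligodendrocyte precursors (-0.75, adjusted p = 0.0278, with 10.4% of genes passing) it was lost without control 1 (0.109), without cKO 1 (0.138) and with stricter groups (0.0977).

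Foxp2 lies on the same chromosome at 14901349 to 15441977 on the plus strand (ENSMUSG00000029563.16). Its levels are ordered here in the control libraries only. Layer 6 corticothalamic cells stood apart at 219.5 and 161.7 CPM in control 1 and 2, a mean of 191 ± 40.8 CPM (SD, n = 2), and the next group did not reach them. That group was the neuroblast cells at 65.4 and 61.1 CPM. Layer 5 pyramidal tract cells followed at 30.9 and 67.2 CPM, and other excitatory neurons at 26.8 and 45.3 CPM. Oligodendrocyte precursors were at 30.7 and 38.9 CPM, astrocytes at 13.5 and 33.2 CPM and upper layer cells at 7.9 and 16.9 CPM. From neuroblast cells to Cajal-Retzius cells, neighbours in the order overlapped. The lowest 2 groups were interneurons of medial origin at 4.88 ± 1.01 CPM and of caudal origin at 1.69 ± 0.224 CPM. These levels rest on 4 and 3 Foxp2 counts in control 1 and 2 for medial origin, and on 2 and 1 for caudal origin. Such counts are too few to order the 2 groups.

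Over all 4 libraries Foxp2 was higher in layer 6 corticothalamic cells than in other cells by 2.17 on the log2 scale (SE 0.356, edgeR adjusted p = 0.000469), and in the control libraries alone by 2.96 (SE 0.265, adjusted p = 0.000499). Of all genes tested, 37.3% and 19.6% passed in these 2 fits. In neuroblast cells Foxp2 was higher by 1.81 (SE 0.344, edgeR adjusted p = 0.00227, with 19% of genes passing). In the control libraries alone it was higher by 0.83 (edgeR adjusted p = 0.0668). Foxp2 was lower in upper layer cells (-1.83), in interneurons of medial (-3.38) and caudal (-4.54) origin and in Cajal-Retzius cells (-2.25), with edgeR adjusted p of at most 0.00348. The shares of all genes that passed there were 48%, 19.9%, 29.7% and 25.2%. In committed oligodendrocyte precursors Foxp2 was lower by 1.36 on the log2 scale (edgeR adjusted p = 0.0221, with 10.4% of genes passing). In the control libraries alone the value was -1.07 (edgeR adjusted p = 0.690). In astrocytes Foxp2 was lower (-0.90, edgeR adjusted p = 0.0182, with 49.6% of genes passing). This call was lost in the control libraries alone (0.141) and without cKO 1 (0.0907). Layer 5 pyramidal tract cells gave -0.15 over all 4 libraries (edgeR adjusted p = 0.670) and 0.39 in the control libraries alone (adjusted p = 0.122).

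Foxp4 lies on chromosome 17 at 47867133 to 47924645 on the minus strand (ENSMUSG00000023991.16). Its level was highest in committed oligodendrocyte precursors and excitatory neurons. Committed oligodendrocyte precursors were at 40.5 ± 14.5 CPM (SD, n = 4), layer 6 corticothalamic cells at 38.6 ± 12.1 CPM, layer 5 pyramidal tract cells at 38.0 ± 4.44 CPM, other excitatory neurons at 36.8 ± 6.37 CPM and upper layer cells at 29.6 ± 1.84 CPM, and all neighbours in the order overlapped. Astrocytes were at 6.89 ± 2.00 CPM. Against the other cells Foxp4 was higher in layer 6 corticothalamic cells by 1.03 on the log2 scale, in other excitatory neurons by 1.01, in layer 5 pyramidal tract cells by 0.95 and in upper layer cells by 0.61, with edgeR adjusted p of at most 0.00102. The shares of all genes that passed there were 37.3%, 52%, 51.4% and 48%. Foxp4 was lower in astrocytes by 1.72 on the log2 scale (SE 0.252, edgeR adjusted p = 0.00326, with 49.6% of genes passing). The value of 0.91 in committed oligodendrocyte precursors did not pass (SE 0.317, adjusted p = 0.0644), nor did those of the 3 inhibitory groups, which lay between -0.43 and 0.18. In Cajal-Retzius cells Foxp4 was lower (-1.10, edgeR adjusted p = 0.0354, with 25.2% of genes passing). This call was lost in the control libraries alone (0.350) and without control 1 (0.0725), cKO 1 (0.164) or cKO 2 (0.0657).

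**Figure D1:**
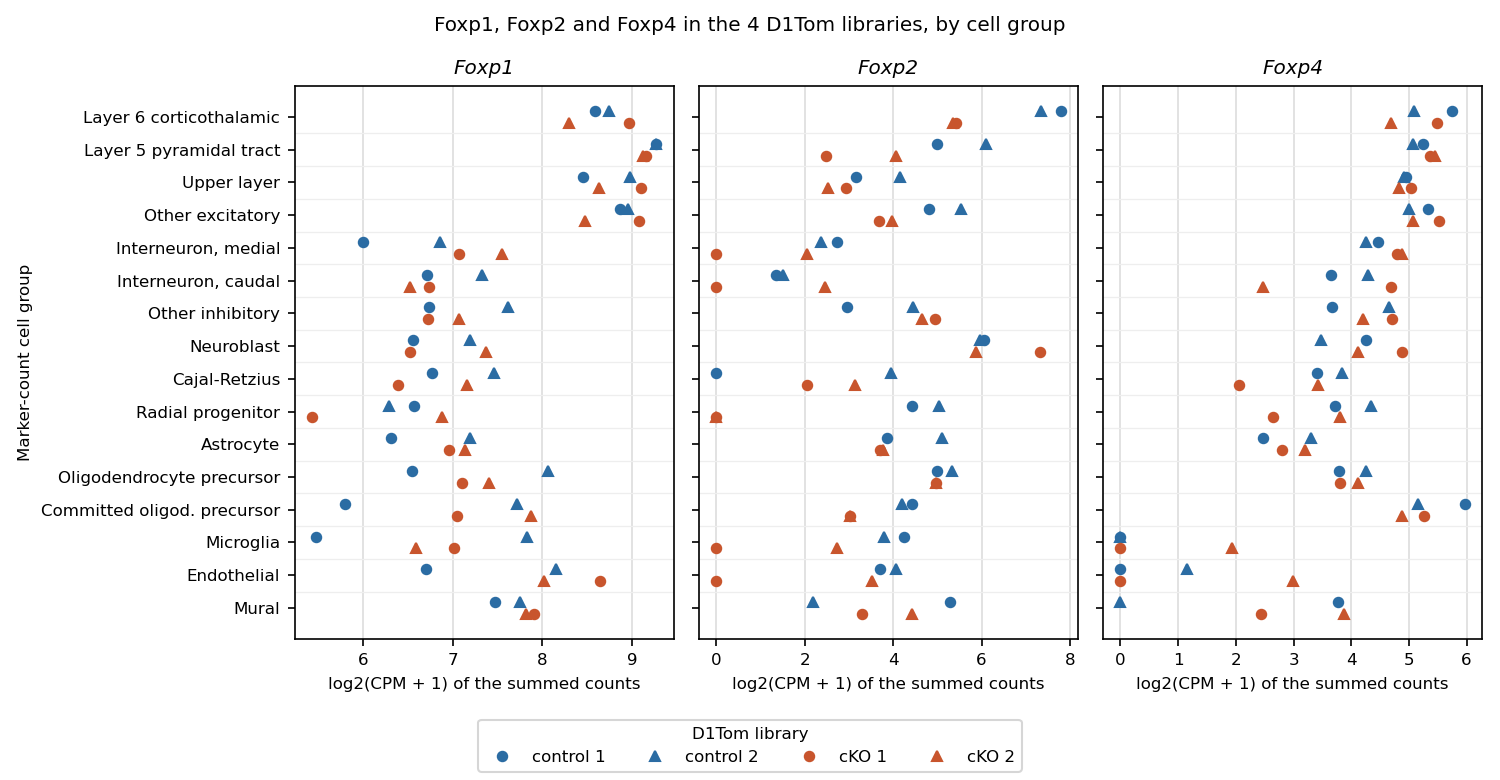
Level of Foxp1, Foxp2 and Foxp4 in each marker-count cell group of the 4 D1Tom libraries, as log2(CPM + 1) of counts summed over the cells of a group, with 1 point per library (blue control, red cKO; circle replicate 1, triangle replicate 2). Foxp1 is highest in the 4 excitatory groups shown (layer 6b or subplate cells, with 1 cell in cKO 1, are left out), Foxp2 in the layer 6 corticothalamic cells of the controls, and the cKO points of Foxp2 lie left of the control points in these 4 groups.

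The genotypes were first compared over all D1Tom cells. Foxp1 was at 240.0 and 325.4 CPM in the controls, against 272.5 and 208.9 CPM in the cKO, with overlap (log2 -0.19, SE 0.226, edgeR adjusted p = 0.998). Foxp4 overlapped as well, at 22.3 and 20.1 CPM against 23.2 and 16.4 CPM (log2 -0.05, SE 0.166, adjusted p = 0.998). For Foxp2, at 36.3 and 39.1 CPM against 26.5 and 19.4 CPM, both cKO libraries lay below both controls, as did 13.7% of all genes tested. Its log2 fold change was -0.67 (SE 0.163, edgeR adjusted p = 0.998). By edgeR 0 of 14508 genes passed (0%), 320 had an unadjusted p under 0.05, and DESeq2 called 20 (0.138%), none of them a Foxp gene. In sums over all cells, fewer cells of a type and less RNA per cell cannot be told apart. Without the neuroblast cells the Foxp2 change was -1.16, and without the layer 6 corticothalamic cells it was -0.14.

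Among the groups tested one by one, the genotype difference of Foxp2 was largest in the deep-layer neurons. In layer 6 corticothalamic cells (194 and 133 control cells, 81 and 87 cKO cells) its level was 219.5 and 161.7 CPM in the controls, against 41.6 and 39.6 CPM in the cKO. The cKO libraries lay far below the controls and close to each other. Foxp2 fell by 2.16 on the log2 scale (SE 0.246, edgeR adjusted p = 0.0231) and was 1 of 2 genes that passed, of 10389 tested (0.0193%). The other was Npy, a neuropeptide gene of interneurons, which is named after its values were seen and was at 42.1 and 73.7 CPM against 303 and 343 CPM. Over 11 alternatives the adjusted p of Foxp2 ranged from 3.72e-12 to 0.0533. It passed with the preparation batch as a replicate block (0.116% of genes) and by DESeq2 (0.0385%), and the call was lost where cells were grouped by number of markers (log2 -2.14). The layer 6 corticothalamic markers themselves summed to 1990 and 1405 CPM in the controls, against 1298 and 1221 CPM in the cKO cells of this group. Markers of interneurons of medial origin, Npy among them, summed to 100 and 179 CPM against 362 and 472 CPM, with all 6 detected in each library, and astrocyte markers to 320 and 1235 CPM against 575 and 1368 CPM. The part of these markers in the result was not tested. The genotype effect on Foxp2 in this group minus that in all other cells was -2.12 (SE 0.367, edgeR adjusted p = 0.573, 0.00709% of genes called).

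In layer 5 pyramidal tract cells (50 to 96 cells per library) its level was 30.9 and 67.2 CPM in the controls, against 4.6 and 15.8 CPM in the cKO, with no overlap. The log2 fold change of -2.39 did not pass (SE 0.557, edgeR adjusted p = 0.999), and 0% of genes passed. With the replicate block it was -2.31 and passed (edgeR adjusted p = 1.14e-09, 0.626% of genes). In other excitatory neurons Foxp2 was at 26.8 and 45.3 CPM against 11.7 and 14.8 CPM, with no overlap. The change of -1.44 (SE 0.341, edgeR adjusted p = 1.00, 0% of genes called) passed with the block at -1.36 (adjusted p = 0.00386, 0.206% of genes). With all excitatory groups summed, layer 6b or subplate cells included, Foxp2 was at 61.7 and 56.5 CPM against 13.4 and 16.8 CPM, a log2 change of -1.96 (SE 0.189). There the edgeR adjusted p was 0.556 with 0% of genes called, 0.00014 with the block (0.186% of genes) and 1.51e-09 by DESeq2 (0.0232% of genes).

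Upper layer cells had Foxp2 at 7.9 and 16.9 CPM against 6.6 and 4.7 CPM (log2 -1.09, SE 0.509). Astrocytes had 13.5 and 33.2 CPM against 12.1 and 12.7 CPM (log2 -0.90, SE 0.458), and the edgeR adjusted p of 0.992 became 0.0016 without control 1, at -1.43. Oligodendrocyte precursors had 30.7 and 38.9 CPM against 30.3 and 30.2 CPM (log2 -0.17, SE 0.297), the smallest difference of the glial groups tested. Only other inhibitory neurons had both cKO libraries above both controls, at 29.6 and 24.0 CPM against 6.7 and 20.8 CPM, a log2 change of 1.00 (SE 0.580, edgeR adjusted p = 0.999). No gene was called in these 4 groups (0% in each).

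Of the 9 groups with at least 30 cells in each library, 7 had enough Foxp2 counts to be tested. In 6 of the 7 the cKO libraries were both lower than either control, in 1 both higher, and in 0 did the genotypes overlap. Of all genes tested in these 6 groups, 17.6% lay below in layer 6 corticothalamic cells, 15.7% in layer 5 pyramidal tract cells, 15% in other excitatory neurons, 12.6% in upper layer cells, 13% in astrocytes and 9.29% in oligodendrocyte precursors. In other inhibitory neurons 14.1% lay above. The ungrouped cells, which are not among the 9 groups, were tested too, and there the genotypes overlapped. Their Foxp2 level was 25.3 and 27.6 CPM in the controls, against 25.4 and 14.6 CPM in the cKO. Without the replicate block, edgeR called Foxp2 in 1 of the 7 groups and DESeq2 in 1. With the block, edgeR called it in 3. The block pairs same-numbered D1Tom libraries, which were prepared in 1 batch per the labels, and the fits without it ignore this pairing. In radial progenitors, too few for a test (15 to 27 cells per library), 5 counts of Foxp2 in each control stood against 0 in each cKO library. GTE radial progenitors (7 to 11 cells per library) had the opposite order, with 0 counts in each control and 3 in each cKO library.

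Foxp1 and Foxp4 were called in no cell group. Foxp1 was tested in all 9 groups, with log2 changes from -0.32 in other inhibitory neurons to 0.85 in interneurons of medial origin. It passed in 0 of them by edgeR (1 with an unadjusted p under 0.05), by DESeq2 and with the block. Its cKO libraries lay below both controls in 1 group, above in 1 and overlapped in 7. The group below was layer 5 pyramidal tract cells (log2 -0.12, SE 0.169). The group above was interneurons of medial origin, at 63.0 and 115.3 CPM in the controls, against 133.2 and 185.6 CPM in the cKO (SE 0.359, edgeR adjusted p = 1.00). There 0% of genes were called and 12.5% lay above. In layer 6 corticothalamic cells Foxp1 was at 383.6 and 426.8 CPM against 500.2 and 313.4 CPM (log2 0.06, SE 0.244).

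Foxp4 was tested in 8 groups, with log2 changes from -0.24 in layer 6 corticothalamic cells to 0.50 in interneurons of medial origin. It passed in 0 by edgeR, DESeq2 or the block, and 0 had an unadjusted edgeR p under 0.05. Its cKO libraries lay above both controls in 2 groups, layer 5 pyramidal tract cells and interneurons of medial origin, and overlapped in 6. In layer 6 corticothalamic cells it was at 52.5 and 33.0 CPM against 43.8 and 24.9 CPM (SE 0.322). In layer 5 pyramidal tract cells it was at 36.8 and 32.5 CPM against 40.1 and 42.8 CPM (log2 0.27, SE 0.230), where 12.8% of all genes lay above.

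**Figure D2:**
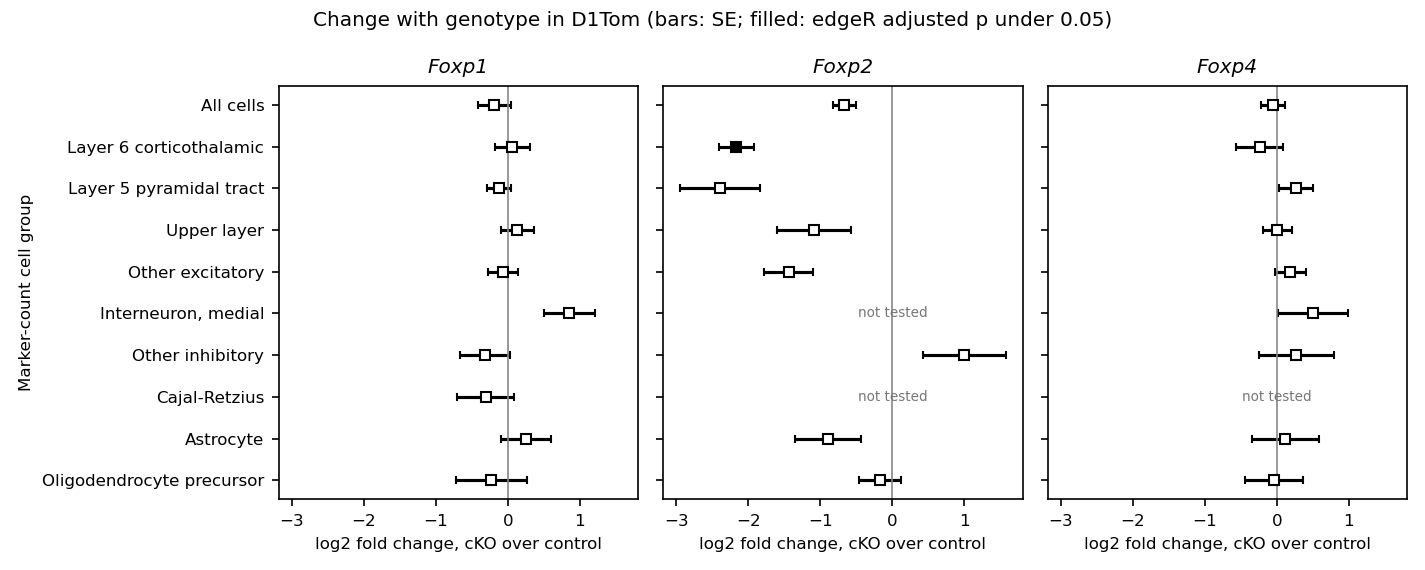
Log2 fold change of Foxp1, Foxp2 and Foxp4, cKO over control, over all D1Tom cells and in the 9 groups with at least 30 cells in each library; bars are standard errors and filled squares have an edgeR adjusted p under 0.05. Only Foxp2 in layer 6 corticothalamic cells, at -2.16, is filled, and groups where the gene was too low to test are marked. The fits shown are those without the replicate block.

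The groups that gave the Foxp2 counts of a library differed between the genotypes. Layer 6 corticothalamic cells gave 52.5% and 24.0% of all Foxp2 counts in control 1 and 2, from 6.05% and 5.55% of the cells. In cKO 1 and 2 they gave 7.16% and 6.59% of the counts from 2.88% and 2.82% of the cells. Neuroblast cells gave 3.56% and 1.71% of the counts in the controls, where they were 2.06% and 1.17% of the cells. In the cKO libraries they gave 43.0% and 26.7% of the counts and were 7.57% and 5.36% of the cells. Whole libraries held 1321 and 1407 Foxp2 counts in the controls, against 782 and 531 in the cKO.

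**Figure D3:**
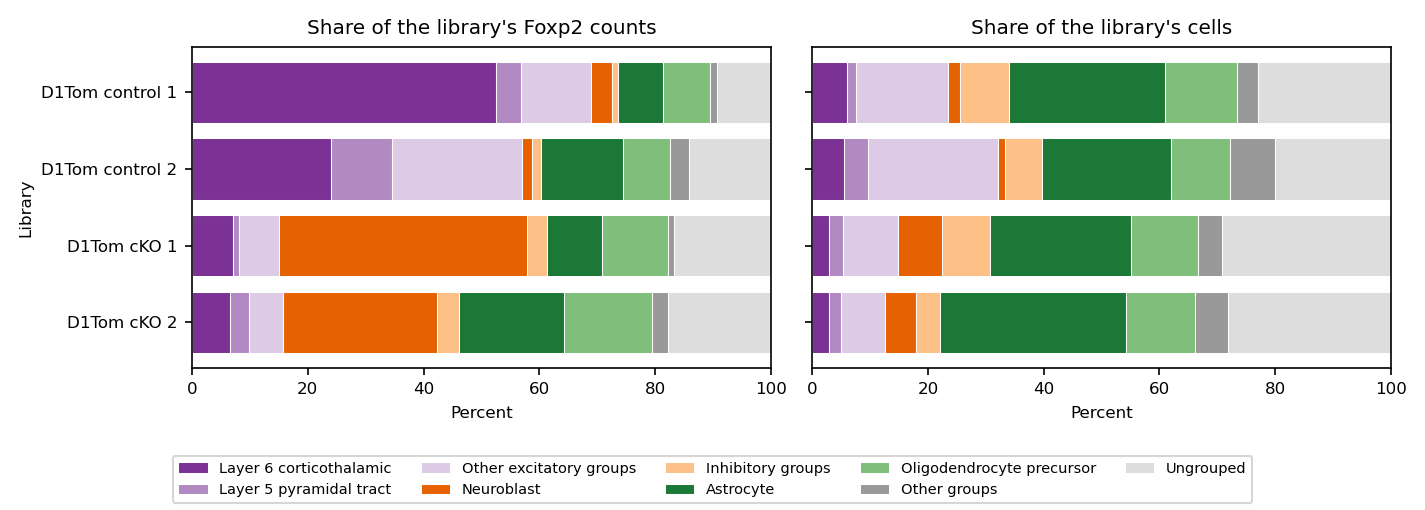
Share of each D1Tom library's Foxp2 counts (left, percent) and of its cells (right, percent) by marker-count cell group, 1 bar per library. The layer 6 corticothalamic part of the Foxp2 counts shrinks from 52.5% and 24.0% in the controls to 7.16% and 6.59% in the cKO libraries, and the neuroblast part grows from 3.56% and 1.71% to 43.0% and 26.7%.

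Neuroblast cells carry markers of migrating neuronal precursors, such as the transcription factors Sp8, Dlx2 and Meis2, and the microtubule protein Dcx. They numbered 66 and 28 in the controls, against 213 and 165 in the cKO, too few in control 2 for a test within the group. Their Foxp2 level was 65.4 and 61.1 CPM in the controls, 159.5 CPM in cKO 1 and 58.0 CPM in cKO 2. The cKO 1 library was high, and the other 3 lay close together. Over all D1Tom cells other than neuroblast cells, the log2 change of Foxp2 was -1.16, which did not pass by edgeR. The difference given next includes this lower level outside the group. The genotype effect on Foxp2 in neuroblast cells minus that in all other cells was 1.83 on the log2 scale (SE 0.410, edgeR adjusted p = 0.0438, 56 of 13907 genes called, 0.403%). Without cKO 1 it was 1.06 (adjusted p = 0.575). Without control 1 it was 2.00 (0.2999), without control 2 1.71 (0.0467) and without cKO 2 2.55 (3.74e-05).

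The neuroblast cells of the genotypes also differed in the level of their own markers. The 10 markers summed to 3003 and 2014 CPM in the controls, against 5268 and 4186 CPM in the cKO. Meis2 alone was at 395 and 316 CPM against 1229 and 1035 CPM. Astrocyte markers in the same cells summed to 196 and 1423 CPM against 1226 and 1767 CPM. Striatal markers summed to 64.0 and 66.2 CPM against 59.8 and 45.3 CPM, and Isl1, which marks striatal lineages, was at 0 in all 4 libraries. The part of these differences in the Foxp2 value was not tested.

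Neuroblast cells with and without a Foxp2 count were also set side by side. Of the 10 markers, 4 (Meis2, Pbx3, Igfbpl1 and Tshz1) were higher beside Foxp2 in all 4 libraries, 1 (Sp8) was lower in all 4, and 5 differed in direction between libraries. In control 1 and 2 only 7 and 6 neuroblast cells had a Foxp2 count, beside 59 and 22 without. The same markers had placed the cells in the group. In cKO 1, the 56 neuroblast cells with a Foxp2 count had Meis2 at 1992 CPM and the 157 without at 945 CPM, and in cKO 2 the 51 with a count were at 1415 CPM and the 114 without at 764 CPM. Pbx3, a homeodomain partner of Meis proteins, was at 339 against 204 CPM in cKO 1 and 167 against 57.4 CPM in cKO 2. Sp8 was at 264 against 326 CPM in cKO 1 and 244 against 261 CPM in cKO 2. Foxp4 was at 64.6 against 15.0 CPM in cKO 1 and 19.6 against 14.01 CPM in cKO 2. Median depth was 4861 counts with and 7003 without a Foxp2 count in cKO 1, and 16577 and 10834 in cKO 2.

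The share of layer 6 corticothalamic cells with a Foxp2 count was 70.6% in control 1 (exact binomial 95% interval 63.7 to 76.9%) and 63.9% in control 2 (55.1 to 72.1%). It was 18.5% in cKO 1 (10.8 to 28.7%) and 27.6% in cKO 2 (18.5 to 38.2%), so the genotypes did not overlap. These intervals cover counting error only. After each cell was thinned to 1000 counts, 17.5% and 13.5% of control cells and 7.41% and 0% of cKO cells kept a Foxp2 count, and the 0 of 87 cells in cKO 2 allows a share of up to 3.45% by the rule of 3 counts and 4.15% by the exact binomial interval. This limits thinned cells with a count, not cells that express the gene. Interneurons of caudal origin, 1 of the 2 groups lowest in Foxp2 in the controls, gave a count in 4 of 275 cells (1.45%). Their median depth was 9942 counts, against 14633 in layer 6 corticothalamic cells. Foxp1 counts were found in 81.4% and 85.7% of control and 76.5% and 77.0% of cKO layer 6 corticothalamic cells, and Foxp4 counts in 38.7% and 34.6% against 33.3% and 21.8%.

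Co-detection was measured against the number of cells that would carry both genes if the genes were detected independently within 10 equal-sized classes of cell depth. Foxp1 and Foxp2 were both detected in 232 of 3206 cells of control 1, 448 of 2395 of control 2, 119 of 2812 of cKO 1 and 243 of 3081 of cKO 2. Observed over expected was 1.07, 1.03, 0.990 and 1.00 over all cells. With the expectation taken inside each cell group it was 0.968, 1.01, 1.04 and 0.998, a mean of 1.00 ± 0.0292 (SD, n = 4). The values lie on both sides of 1. Among layer 6 corticothalamic cells, 108 of 194 and 73 of 133 control cells carried both, 55.3% ± 0.554 (SD, n = 2). In the cKO libraries 14 of 81 and 21 of 87 did, 20.7% ± 4.85. Observed over expected in this group was 0.959 and 0.969 in the controls, against 1.09 and 1.03 in the cKO. This ratio has little room on either side of 1 where most cells carry Foxp1. The Mantel-Haenszel odds ratio compares the odds of a Foxp1 count with and without Foxp2 inside the depth classes. It was 0.343 and 0.465 in the controls, where independent detection gives 1. In the cKO it was 6.19 and 1.35, from 15 and 24 cells with a Foxp2 count. These ratios were not tested. Most layer 6 corticothalamic cells with a Foxp2 count also had a Foxp1 count, 78.8% and 85.9% in the controls, against 93.3% and 87.5% in the cKO.

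The level of Foxp1 was also compared between layer 6 corticothalamic cells with and without Foxp2. Cells with a Foxp2 count had Foxp1 at 324 CPM in control 1, and those without at 558 CPM. The pairs were 401 beside 483 CPM in control 2, 346 beside 538 CPM in cKO 1, and 293 beside 324 CPM in cKO 2. Foxp1 was thus lower beside Foxp2 in 4 of 4 D1Tom libraries. The cells with a Foxp2 count were deeper in each library, with medians of 17772 against 12249 counts in control 1. In the upper layer cells of the controls the order was opposite, with 439 against 345 CPM and 683 against 472 CPM. These levels came from 12 and 31 cells with a Foxp2 count. Layer 6 corticothalamic cells of GTE control 2 were opposite too, at 189 CPM (14 cells) against 119 CPM (12 cells). Other D1Tom excitatory groups were mixed. Layer 5 pyramidal tract cells had log2 ratios of -0.10 (control 1), 0.16 (control 2) and 0.11 (cKO 2). Other excitatory neurons had 0.36 (control 1), 0.05 (control 2), 0.03 (cKO 1) and -0.59 (cKO 2).

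Foxp1 and Foxp4 were detected together within groups at 1.04 ± 0.026 times the expected number (SD, n = 4), between 1.01 and 1.07, above 1 in all 4 libraries. Foxp2 and Foxp4 gave 1.09 ± 0.161, between 0.972 and 1.33, with the highest value in cKO 1. In the neuroblast cells of cKO 1 the pair was found in 20 cells against 9.48 expected, 2.11 times, and in those of cKO 2 in 15 against 12.6, 1.19 times.

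**Figure D4:**
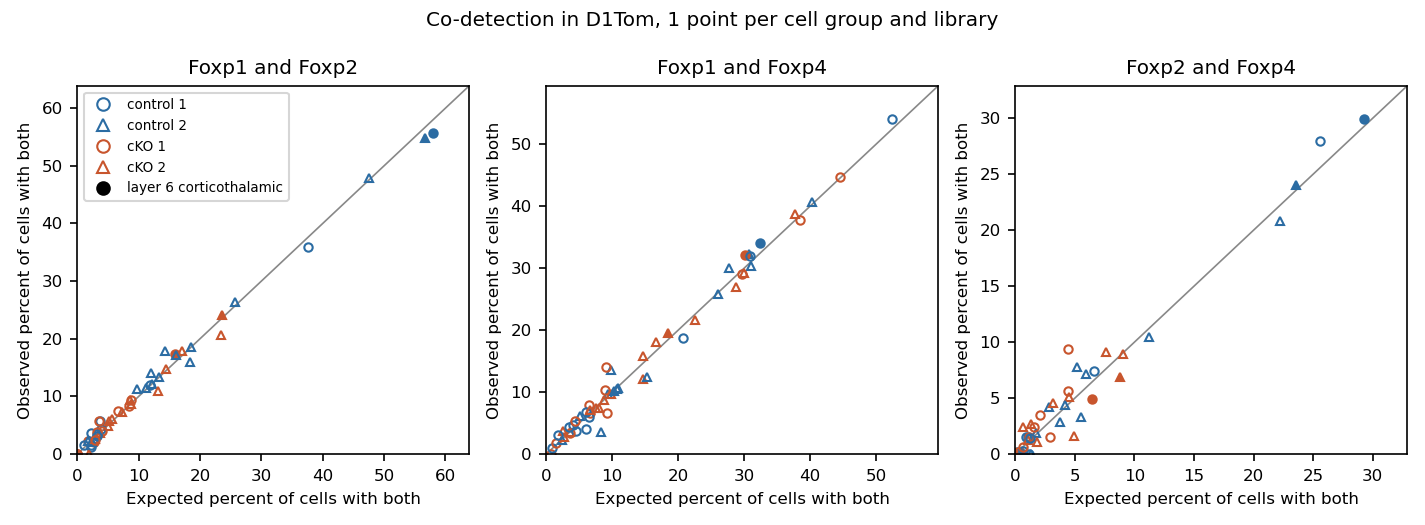
Observed against expected percent of cells with counts of both genes, for the 3 pairs of Foxp genes, with 1 point per cell group and D1Tom library (blue control, red cKO, filled for layer 6 corticothalamic cells); the line marks equality. Points follow the line, and the filled Foxp1 and Foxp2 points move from about 55% in the controls to 17.3% and 24.1% in the cKO libraries.

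The same comparison was made over all GTE cells. Foxp1 was at 71.2 and 162.1 CPM in the controls, against 64.5 and 104.8 CPM in the cKO (log2 -0.66, SE 0.562, edgeR adjusted p = 0.984). Foxp2 was at 9.5 and 46.9 CPM against 25.4 and 7.4 CPM (log2 -1.19, SE 0.544, adjusted p = 0.914), and Foxp4 at 4.6 and 2.9 CPM against 3.4 and 3.9 CPM (log2 -0.44, SE 0.725, adjusted p = 0.984). All 3 overlapped between the genotypes, and 4 of 12042 genes passed (0.0332%): Ctla2a, Cldn5, Slc22a15 and Kif20b, named after their values were seen. Control 2 was the high library for Foxp2, and without it the change was 0.08. Layer 6 corticothalamic cells numbered 26 in that library and 2, 5 and 6 in control 1, cKO 1 and cKO 2, and gave 83 of its 229 Foxp2 counts (36.2%), at 436 CPM. Oligodendrocyte precursor markers summed to 309 and 536 CPM in the GTE controls, against to 1807 and 556 CPM in the cKO, and their part in these values was not tested.

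Within GTE groups large enough to test, Foxp2 in oligodendrocyte precursors was at 21.1 and 79.3 CPM in the controls, against 38.6 and 30.9 CPM in the cKO (log2 -0.57, SE 0.640, 0.0152% of genes called). In astrocytes it was at 9.7 and 22.0 CPM against 17.7 and 4.2 CPM (log2 -0.80, SE 0.694, 0% of genes called). Both overlapped. Foxp1 in oligodendrocyte precursors was at 63.4 and 125.2 CPM against 26.6 and 68.4 CPM, also with overlap, and its log2 change was -1.12 (SE 0.556, edgeR adjusted p = 1.00).

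Between the sorts, only controls were compared. Foxp4 was higher in D1Tom than in GTE by 1.79 on the log2 scale, a difference that did not pass by edgeR (SE 0.424, edgeR adjusted p = 0.0769, 196 of 13823 genes called, 1.42%). It passed by DESeq2 (1.72, adjusted p = 0.0200, 9.68% of genes). Foxp1 differed by 0.69 (SE 0.409, adjusted p = 0.349) and Foxp2 by -0.12 (SE 0.535, adjusted p = 0.916). Sort and preparation cannot be told apart here.

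The 19 listed partners of FOXP proteins include the co-repressors Ctbp1 and Ctbp2, NuRD subunits such as Gatad2a, Gatad2b and Chd4, and cortical transcription factors such as Tbr1 and Sox5. In D1Tom, 0 of 19 passed by edgeR, DESeq2 or the block (0% of all genes by edgeR), and 1 had an unadjusted edgeR p under 0.05. The median log2 change was 0.03, beside -0.01 over all genes tested. Both cKO libraries lay below both controls for partners that included Tbr1 and Nr2f2, and above for Mta1 and Chd4, beside 13.7% and 9.7% of all genes. Gatad2a had the most positive log2 change, 0.25, at 27.2 and 36.3 CPM against 33.6 and 38.5 CPM. In GTE 0 of 19 passed as well by edgeR, DESeq2 or the block, which there pairs libraries by number with batches unknown. Unadjusted edgeR p was under 0.05 for 2 partners, Tbr1 among them. The median GTE change was 0.08, beside -0.05 over all genes. Tbr1, a regulator of layer 6 identity that binds FOXP2, was at 32.7 and 108 CPM against 30.6 and 34.3 CPM, a log2 change of -1.35 (SE 0.540, edgeR adjusted p = 0.848). Ctbp2 had the most positive GTE value, 0.70, at 9.68 and 6.56 CPM against 29.98 and 9.55 CPM. In D1Tom, Tbr1 was at 88.9 and 95.9 CPM in the controls, against 73.5 and 66.4 CPM in the cKO (log2 -0.34, SE 0.146). The excitatory neuron markers, which Tbr1 accompanies in cortex, summed to 742 and 703 CPM in the D1Tom controls, against 595 and 413 CPM in the cKO. Their part in the Tbr1 values was not tested.

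Likeness was measured as the Pearson correlation of log2(CPM + 1) across 16 D1Tom cell groups, over 11755 genes. Each group was the mean over all D1Tom libraries, control and cKO. The Foxp2 profile therefore includes the cKO libraries, where its layer 6 corticothalamic level was 40.6 CPM, against 191 CPM in the controls. The groups share libraries, and the values are descriptions. The genes most like Foxp1 were Dgkh (0.923), Mkl2 (0.908), Mapk15 (0.899), Ssx2ip (0.882) and Sort1 (0.878). Those most like Foxp2 had lower correlations: Trh (0.744), Krr1 (0.728), Ranbp10 (0.695), Adcy9 (0.687) and Hnrnpll (0.684). Foxp4 was followed most closely, by Narf (0.968), Fsd1l (0.963), Dcun1d1 (0.960), Gopc (0.957) and Tulp4 (0.954). The family members were not among one another's nearest genes, with correlations of 0.406 for Foxp1 and Foxp2, 0.415 for Foxp1 and Foxp4 and 0.368 for Foxp2 and Foxp4.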

How the data were processed

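For each sort the authors deposited 1 count table, with genes in rows and cells in columns, with unique molecular identifier (UMI) counts per the labels, every value a whole number. The submitters' processing notes name bcl2fastq 2.17.1.14, Cell Ranger 2.1.1, FastQC 0.11.5, UMI-tools 0.5.4, STAR 2.5.2b, featureCounts, Subread 1.6.2 and SAMtools 1.6, with the builds mm10 and GRCm38.p6 and no roles. The labels give a target of 1000 cells per sample, and the tables hold 1440 to 3948 per library.

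The members, gene lists and tests were chosen with earlier results of these data known. The rule that turns marker counts into cell groups, the comparison of genotype effects between groups and the alternatives without doublets, without neuroblast or layer 6 corticothalamic cells and with groups by number of markers were chosen after seeing the data. Cells were not clustered. Doublets were kept, and an alternative removed the cells with the highest Scrublet scores (scanpy 1.11.5), 0.8% for every 1000 cells. Named genes besides the members are partners with an unadjusted p under 0.05 or the largest rise or fall, and the 5 genes most like each member among those at 10 CPM or more in at least 1 group. Others named were chosen after their values were seen. Values of 1 listed partner are not reported here.

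Counts were summed per library and cell group and tested with edgeR 4.0.16 (R 4.3.3): quasi-likelihood test, TMM factors, the default low-count filter, and p-values adjusted by Benjamini-Hochberg over all genes of the fit at 0.05. Standard errors are the fold change over the square root of F. DESeq2 1.42.0 was an alternative. Groups against other cells had the library as a block. Levels are CPM of the summed counts. The fits were tested on simulated data. Python 3.11.15 and scipy 1.17.1 were used for the rest. Same-numbered D1Tom libraries were prepared in 1 batch per the labels, and their deviations from the group means correlated at 0.500 over 14508 genes, so the numbers pair them. The GTE batch text repeats that of D1Tom and contradicts the sexes given, so GTE batches were treated as unknown. In D1Tom only cKO 2 was male.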

Additional observations from a re-analysis of the deposited data

Results flagged for a closer look

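The genotype effect on Foxp2 in D1Tom neuroblast cells minus that in all other cells of the same libraries was 1.83 on the log2 scale by edgeR's interaction term (adjusted p = 0.0438), beside Foxp2 levels of 65.4 and 61.1 CPM in the control and 159.5 and 58.0 CPM in the cKO neuroblast cells. The call was lost without cKO 1 (1.06, edgeR adjusted p = 0.575) and without control 1 (2.00, edgeR adjusted p = 0.2999). This comparison was added after the data were seen. The value of 1.83 includes the change outside the group, which was -1.16 over all D1Tom cells other than neuroblast cells.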

How the results depend on the processing

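The fall of Foxp2 in layer 6 corticothalamic cells kept its direction in 11 of 11 alternatives and its call in 10, and lost it with groups by number of markers (-2.14, edgeR adjusted p = 0.0533). With the replicate block the call was kept (-2.18, adjusted p = 1.52e-05). The block changed the call of no result other than those given with the report's values and Foxp4 between the sorts. Without layer 6 corticothalamic cells Foxp4 over all D1Tom cells was 0.033. With stricter groups Foxp2 in oligodendrocyte precursors was 0.10, Foxp1 in layer 6 corticothalamic cells -0.11 and Foxp4 in interneurons of medial origin -0.0071. In control libraries only, Foxp2 against other cells was 0.39 in layer 5 pyramidal tract cells and -0.13 in oligodendrocyte precursors. Between the sorts Foxp2 was 0.40 without normalization factors and 0.13 with the replicate block. Foxp4 was called by DESeq2 (1.72), without factors (2.47) and with the block (1.84). The block there pairs D1Tom and GTE libraries by number alone, as GTE batches are unknown, so its call carries no weight. Leaving out factors moved the median of all genes from -0.05 to 0.38 in GTE and from 0.06 to 0.69 between the sorts.

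Leaving out each library in turn gave -0.43 to 0.11 for Foxp1 and -0.20 to 0.087 for Foxp4 over all D1Tom cells, and -1.85 to 0.081 for Foxp2 and -0.96 to 0.20 for Foxp4 in GTE. In layer 6 corticothalamic cells it gave -0.23 to 0.29 for Foxp1 and -0.64 to 0.11 for Foxp4. Foxp2 in oligodendrocyte precursors ranged from -0.42 to 0.11, and Foxp1 in other inhibitory neurons from -0.73 to 0.21. Against other cells Foxp2 ranged from -0.76 to 0.25 in layer 5 pyramidal tract cells and from -0.032 to 0.30 in oligodendrocyte precursors. Between the sorts Foxp2 ranged from -0.77 to 1.06 and Foxp4 from 1.28 to 2.43. The cause of these changes was not tested. GTE numbers deviated in opposite directions (correlation -0.348 over 12042 genes), and with the numbers crossed 24 genes were called, 10 higher and 14 lower.

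Shares depend on depth. Co-detection of Foxp1 and Foxp2 within groups was 0.864 times the expected number on average after thinning to 1000 counts, with 0.824 and 1.06 for the controls, 1.07 for cKO 1 and 0.506 for cKO 2, the last from 3 cells against 5.92 expected. The mean share of layer 6 corticothalamic cells with Foxp2 in the controls was 8.28% thinned to 500 counts, 35.7% at 2000, 67.3% without thinning and 55.9% for at least 2 counts. In the cKO libraries it was 9.70% at 2000, 23.1% without thinning and 12.6% for at least 2 counts.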

Other observations

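Dividing cells were taken as those with at least 2 division markers at or above the marker's mean CPM over all cells of the sort. Over all D1Tom cells Foxp4 was lower in dividing than in other cells in 4 of 4 libraries, at 10.9 against 23.5 CPM in control 1, 10.0 against 22.2 CPM in control 2, 7.21 against 25.1 CPM in cKO 1 and 13.2 against 17.2 CPM in cKO 2. Foxp1 was lower as well in 4 of 4, with log2 ratios of -0.99, -0.44, -1.07 and -0.19. Foxp2 was lower in 3 of 4 (-0.44, -0.24 and -0.38) and higher in cKO 2 (0.63). Inside the astrocyte group the Foxp4 log2 ratios were -0.13, -0.55, -0.26 and 0.78, so the order did not hold in every library there. Inside the oligodendrocyte precursors they were -0.38, -1.97, -0.66 and 0.30. No test was run on these splits.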
